A study of Cavia porcellus with 34 samples.

Results

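The circadian clock genes CLOCK, NPAS2, ARNTL, RORA, PER1, PER2, PER3, CRY1, CRY2 and NR1D1 were examined in RNA-seq of the hypothalamic paraventricular nucleus (PVN) of juvenile female guinea pigs (Cavia porcellus). These 10 genes were taken by symbol, and all 10 of 10 were present among the 12114 genes listed for F1, the 12207 listed for F2 and the 12068 listed for F3. The animals descended from pregnant guinea pigs (F0) that had received courses of the synthetic glucocorticoid betamethasone (sGC) or saline vehicle (Veh). F1 animals were their daughters, and F2 and F3 animals descended from them through the paternal line. F1 held 5 Veh and 5 sGC animals, F2 held 5 and 5, and F3 held 6 and 6, all at a nominal age of postnatal day 40. The methods give a mean age somewhat above that day. Only F0 mothers were injected, so that F1 animals were exposed before birth, and the F1 and F2 breeders of this line were mated with untreated animals. Tissue was a micropunch that could include adjacent hypothalamus, and the animals were killed in the morning, so that each animal gives one point of the daily cycle. In such bulk tissue, fewer cells of a type and less RNA per cell cannot be told apart.

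The molecular clock is a transcriptional feedback loop that runs in most cells. CLOCK, or its relative NPAS2, pairs with ARNTL (BMAL1) and binds E-box elements, which turns on the PER and CRY genes; the PER and CRY proteins then accumulate and inhibit the same pair. In a second loop the nuclear receptors RORA, an activator, and NR1D1 (REV-ERB alpha), a repressor, compete at the ARNTL promoter. CLOCK, NPAS2, ARNTL and RORA are described below as the positive limb and PER1, PER2, PER3, CRY1, CRY2 and NR1D1 as the negative limb. The master clock of the hypothalamus is the suprachiasmatic nucleus, which projects to the PVN, where adrenal glucocorticoid rhythms are set. Glucocorticoids can act directly on the loop, since PER1 and PER2 carry glucocorticoid receptor binding sites.

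Values are normalized counts as deposited. In F1 they summed to between 15573233 and 21935501 per animal and in F2 to between 15645962 and 19435104, whereas in F3 the totals lay closer together, between 18692048 and 18977539. A difference in total moves all genes of an animal together, and median-of-ratios size factors, which set the middle gene equal between animals, ran from 0.85 to 1.20 in F1, 0.88 to 1.08 in F2 and 0.99 to 1.01 in F3. The median log2 fold change (sGC against Veh) of all tested genes was 0.07 in F1, -0.08 in F2 and -0.0016 in F3 before this scaling, and 0.0033, -0.0020 and -2.06e-04 after it.

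Sorted by the mean of the Veh animals, the clock genes spanned most of the range of expression in each table. NR1D1 had the highest value in every table, at 3372 ± 544 (SD, n = 5) in F1, 3793 ± 260 (SD, n = 5) in F2 and 3236 ± 79.2 (SD, n = 6) in F3, above 90.7%, 91.9% and 89.3% of all genes listed. PER3 had the lowest, at 129 ± 23.2 in F1, 223 ± 41.4 in F2 and 47.5 ± 9.01 in F3 (SD, the same animals), above 17.4%, 23.9% and 8.96% of genes. These percentiles are of counts, which also grow with transcript length, and so order the genes by reads rather than by transcripts. The 3 tables were normalized separately, so that levels are set side by side without a test. After centring on the median gene, PER3 of F3 Veh was lower than PER3 of F2 Veh by 2.17 on the log2 scale, a difference below that of all but 0.411% of 11429 genes. The other 9 clock genes differed between F2 and F3 by no more than 0.30 on that scale, and CLOCK had that largest difference, being higher in F3. Relative to F1 Veh, CLOCK of F3 Veh was at 0.36 on that scale, above 87.2% of genes. PER3 relative to F1 Veh was at 0.71 in F2 Veh and at -1.45 in F3 Veh.

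**Figure D1:**
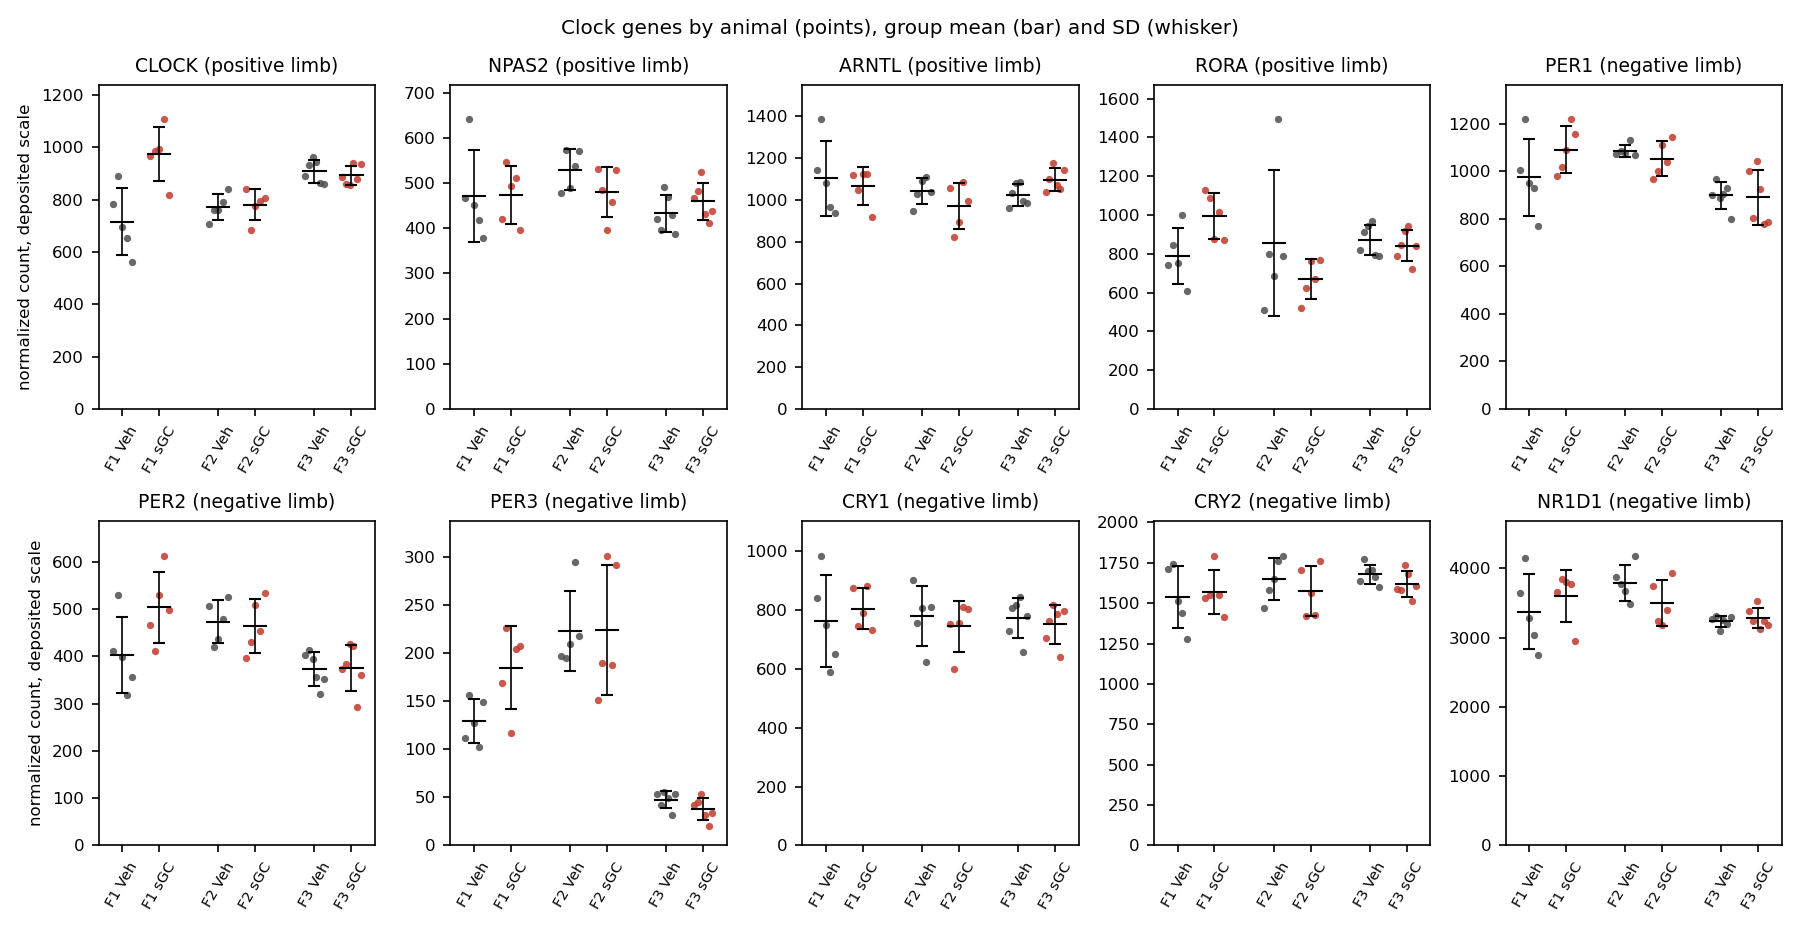
Normalized counts (y axis, deposited scale, from 0) of each of the 10 clock genes in every animal, by generation and treatment (x axis; grey points Veh, red points sGC, bars means, whiskers SD). CLOCK of F1 sGC animals lies at 820 to 1108 against 561 to 892 in F1 Veh, and PER3 is lowest in F3.

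The first question was whether any clock gene differed between sGC and Veh animals within a generation. CLOCK was the member with the clearest difference, and it was higher in F1 sGC animals. CLOCK was at 783, 892, 696, 652 and 561 in F1 Veh (SGM3, SGM7, SGM11, SGM15 and SGM19) and at 969, 988, 993, 1108 and 820 in F1 sGC (SGM4, SGM8, SGM12, SGM16 and SGM20). All 5 sGC animals were above the Veh mean, and the groups overlapped only through Veh SGM7, the animal with the largest total, and sGC SGM20, the sGC animal with the smallest. The log2 fold change was 0.46 (SE 0.13, 1.37-fold), which did not pass the threshold of 0.05 after adjustment over all genes (limma, adjusted p = 0.110; exact permutation p = 0.0159, two-sided). After size factors CLOCK was at 724 ± 37.8 (SD, n = 5) in Veh and 952 ± 60.1 (SD, n = 5) in sGC. The groups then did not overlap, with Veh animals at 661 to 755 and sGC animals at 903 to 1055. The log2 fold change was 0.39 (SE 0.06, 1.31-fold), and it passed (limma, adjusted p = 0.00190; exact permutation p = 0.00794, the smallest that 5 against 5 can give). On that scale CLOCK passed in all 10 refits that each left out 1 animal, with log2 fold changes from 0.36 to 0.41. Without size factors it passed in 1 of 10 such refits, that without Veh SGM7 (log2 fold change 0.54, limma adjusted p = 0.0286). In the same animals all 8 PVN markers were lower in sGC and 6 of 7 suprachiasmatic markers were higher, and their part in the CLOCK difference was not tested.

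Of the 10 clock genes, 0 passed in F1 on the deposited scale with limma, where 0.657% of all 11874 tested genes passed. With size factors 1 of 10 passed, CLOCK, where 17.3% of all genes passed, so that the share of clock genes called was not above that of genes in general. At an unadjusted limma p under 0.05 the deposited scale gave 4 clock genes (CLOCK, RORA, PER2 and PER3) against 13.6% of all genes. After size factors it gave 4 as well (CLOCK, ARNTL, PER2 and PER3), against 32.9% of all genes.

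No difference of the partners of CLOCK passed in F1. ARNTL, the obligate partner in the loop, was at 1142, 1386, 1081, 966 and 938 in F1 Veh and at 1117, 1048, 1124, 1124 and 917 in F1 sGC. Those groups overlapped, with a log2 fold change of -0.04 (SE 0.12; limma, adjusted p = 0.927). After size factors ARNTL was at 1116 ± 24.6 (SD, n = 5) in Veh and 1041 ± 44.0 (SD, n = 5) in sGC, without overlap, since the Veh animals lay at 1085 to 1153 and the sGC animals at 978 to 1075. That difference of -0.10 (SE 0.04) did not pass after adjustment (limma, adjusted p = 0.103; exact permutation p = 0.00794). NPAS2, which can stand in for CLOCK, ranged from 378 to 641 in Veh and from 395 to 547 in sGC, with a log2 fold change of 0.02 (SE 0.15; limma, adjusted p = 0.972) that was -0.04 after size factors.

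Since totals cancel within an animal, the ratio of CLOCK to ARNTL does not depend on any scaling by 1 factor per animal. It was chosen after the values were seen and is given as a description. The log2 ratio in F1 was -0.54, -0.64, -0.64, -0.57 and -0.74 in Veh and -0.21, -0.09, -0.18, -0.02 and -0.16 in sGC. No F1 sGC animal reached the Veh range. In F2 the ratio was -0.52 to -0.30 in Veh and -0.45 to -0.21 in sGC, which overlapped. In F3 the order was turned, with Veh at -0.20 to -0.11 and sGC at -0.46 to -0.19, and the groups shared only the stretch from -0.20 to -0.19. CLOCK over NPAS2 likewise did not overlap in F1, with Veh at 0.48 to 0.75 and sGC at 0.85 to 1.20, and overlapped in F2 and F3.

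**Figure D2:**
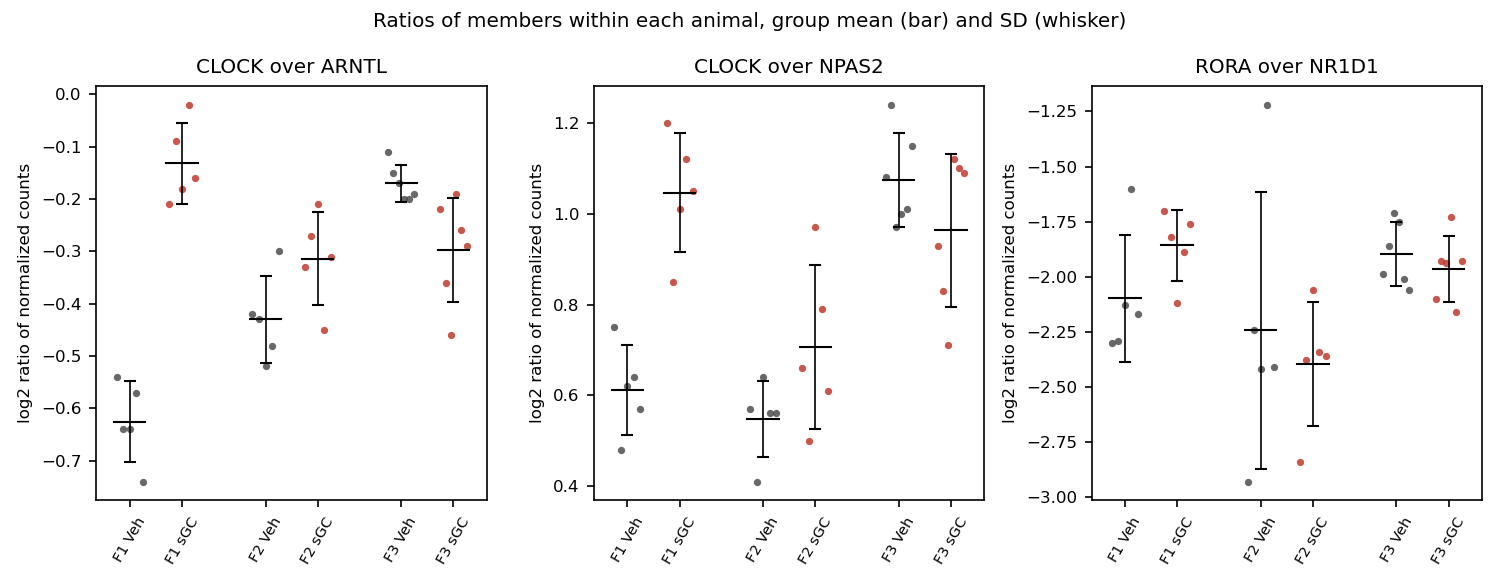
Log2 ratio of 2 clock genes within each animal (y axis), by generation and treatment (x axis; grey points Veh, red points sGC, bars means, whiskers SD). CLOCK over ARNTL separates F1 Veh (mean -0.63) from F1 sGC (mean -0.13) and does not separate the F2 groups, while RORA over NR1D1 overlaps in all 3 generations.

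RORA, the activator of the second loop, was at 743, 848, 752, 1000 and 610 in F1 Veh and at 1128, 1088, 874, 1018 and 871 in F1 sGC. All 5 sGC animals were above the Veh mean and Veh SGM15 lay within the sGC range. The log2 fold change was 0.34 (SE 0.14; limma, adjusted p = 0.257; exact permutation p = 0.0317). It was 0.28 after size factors (SE 0.13; limma, adjusted p = 0.163; exact permutation p = 0.119). RORA passed on that scale in 1 of 10 refits, that without Veh SGM15 (log2 fold change 0.42, limma adjusted p = 0.00655).

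In the negative limb all 6 log2 fold changes of F1 were positive on the deposited scale, with a median of 0.14 beside 0.07 for all genes, and 5 of 6 were positive after size factors, with a median of 0.08 beside 0.0033. None of the 6 passed on either scale. PER2, a glucocorticoid-responsive inhibitor of the loop, was at 412, 529, 399, 318 and 357 in Veh and at 466, 411, 531, 613 and 498 in sGC. The groups overlapped, with a log2 fold change of 0.33 (SE 0.15; limma, adjusted p = 0.326; exact permutation p = 0.0714). PER3, which is dispensable for rhythms in mice but cycles strongly, was at 112, 156, 127, 102 and 149 in Veh and at 169, 226, 117, 204 and 207 in sGC. Of the sGC animals 4 were above every Veh animal and SGM12 was within their range, with a log2 fold change of 0.49 (SE 0.19; limma, adjusted p = 0.231; exact permutation p = 0.0476). After size factors PER2 was at 0.27 (limma, adjusted p = 0.109) and PER3 at 0.43 (adjusted p = 0.150). On that scale PER2 passed in 1 of 10 refits that left out 1 animal, that without sGC SGM8 (0.35, limma, adjusted p = 0.0224). PER3 passed in 1 of 10 as well, that without sGC SGM12 (0.59, limma, adjusted p = 0.0276). Each of these refits dropped the sGC animal with the lowest value of that gene. Over the 10 refits the adjusted p-values reached 0.2055 for PER2 and 0.2813 for PER3.

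PER1, the PER gene with the best known glucocorticoid response element, averaged 974 ± 162 in F1 Veh animals against 1091 ± 97.2 in F1 sGC animals (SD, n = 5 each), which gave a log2 fold change of 0.17 and a 95% interval from -0.09 to 0.44 (limma, adjusted p = 0.612). The cryptochromes CRY1 and CRY2, which carry most of the repression, had log2 fold changes of 0.10 (interval -0.19 to 0.38) and 0.03 (interval -0.21 to 0.27). NR1D1, the repressor of ARNTL, had 0.10 (interval -0.16 to 0.36). After size factors the interval of NR1D1 narrowed to -0.05 to 0.13 and that of CRY2 to -0.16 to 0.09, with the sign of CRY2 turned to -0.03. Changes of the size seen for CLOCK lie outside these intervals of NR1D1 and CRY2 on that scale.

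**Figure D3:**
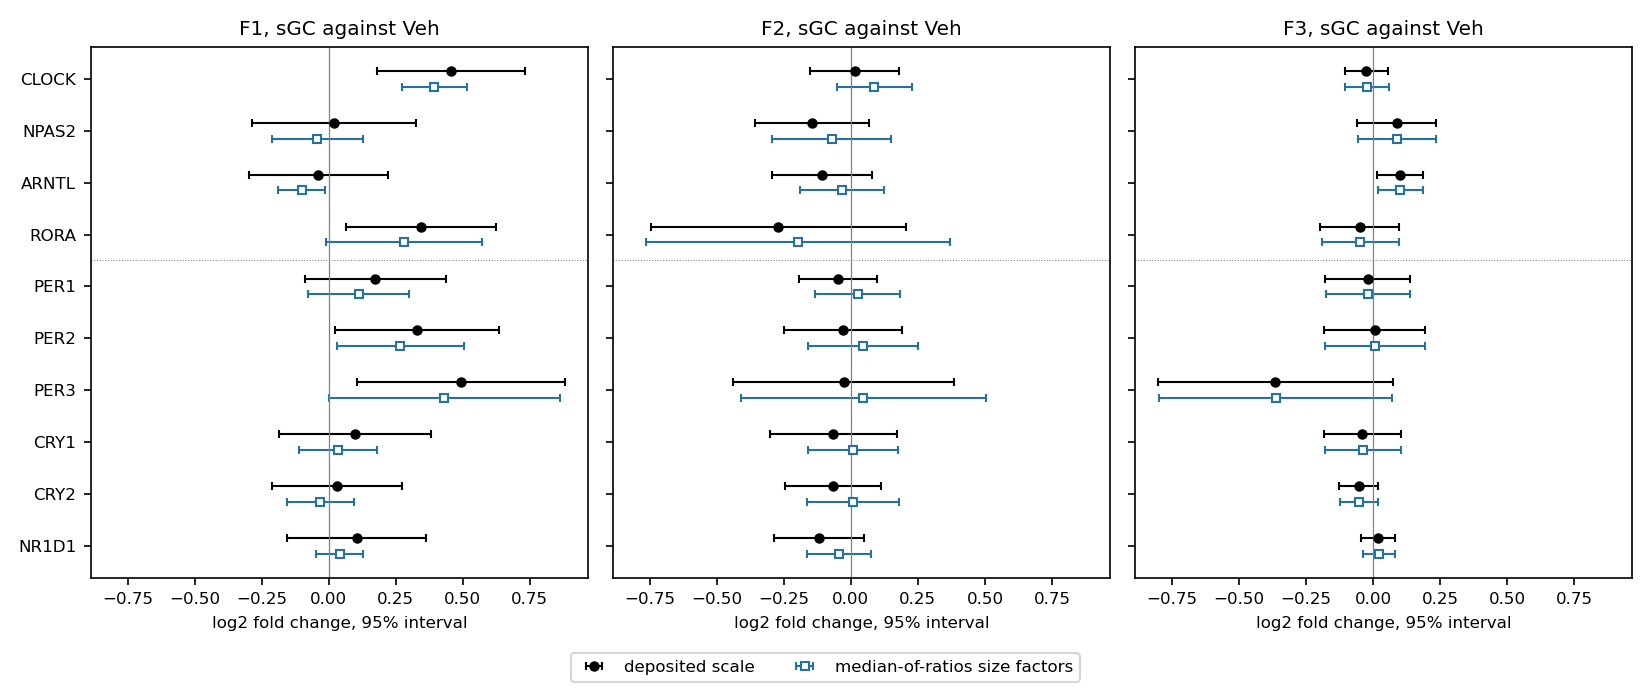
Log2 fold change of sGC against Veh (x axis; points estimates, whiskers 95% limma intervals) of each clock gene (y axis, positive limb above the dotted line) in F1, F2 and F3, on the deposited scale (black) and after size factors (blue). CLOCK in F1 is at 0.46 and 0.39, and in F2 and F3 most clock genes lie within 0.15 of 0, apart from RORA in F2 and PER3 in F3.

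In F2 no difference of a clock gene passed the test. With limma 0 of 10 passed, 0 of 10 had an unadjusted p under 0.05 on either scale, and 0% of all 11965 tested genes passed on either (11.7% had an unadjusted p under 0.05 on the deposited scale). CLOCK was at 709, 762, 760, 792 and 840 in Veh (SGM22, SGM23, SGM27, SGM28 and SGM29) and at 843, 684, 776, 794 and 806 in sGC (SGM21, SGM24, SGM25, SGM26 and SGM30), a log2 fold change of 0.01 (95% interval -0.15 to 0.18). The groups covered nearly the same range. ARNTL was at 948 to 1108 in Veh and 824 to 1084 in sGC, with a log2 fold change of -0.11 (interval -0.29 to 0.08), which was -0.03 after size factors. On the deposited scale 9 of 10 clock genes had a negative log2 fold change and after size factors 4 of 10 did, with medians of -0.07 and 0.01 beside -0.08 and -0.0020 for all genes.

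The clock gene with the widest scatter in F2 was RORA. It was at 508, 798, 686, 1494 and 789 in Veh and at 523, 624, 761, 672 and 768 in sGC. A single Veh animal, SGM28, stood above all the others, and the remaining animals of both groups overlapped. The log2 fold change was -0.27 (SE 0.22; limma, adjusted p = 0.638), and without SGM28 it was -0.05. The same animal had the highest PER3 of the Veh group, 295 against 195 to 218 in the others. It also had the lowest GFAP of the group, an astrocyte marker, at 3088 against 7870 to 29089, and the lowest SIX6, a suprachiasmatic marker, at 15 against 36 to 133. The part of tissue content in these values was not tested.

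In F3 again 0 of 10 clock genes passed with limma, where 0.0506% of all 11866 tested genes passed, and 1 had an unadjusted p under 0.05 (13.1% of all genes did). That gene was ARNTL. ARNTL lay between 963 and 1085 in Veh (median 1013) and between 1036 and 1178 in sGC (median 1087). All 6 sGC animals were above the Veh mean, and the groups overlapped between 1036 and 1085. The log2 fold change was 0.10 (SE 0.04, 1.07-fold; limma, adjusted p = 0.304; exact permutation p = 0.0390). Of the 6 sGC animals 2 were sequenced in a second batch, whose 2 re-sequenced Veh libraries were not analysed here. Within the first batch the ARNTL log2 fold change was 0.10 as well (limma, adjusted p = 0.512).

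CLOCK in F3 lay between 859 and 964 in Veh and between 857 and 942 in sGC, with a log2 fold change of -0.02 and a narrow 95% interval from -0.10 to 0.06. That interval leaves out the F1 difference on either scale. PER3 lay between 32 and 56 in Veh and between 20 and 53 in sGC, with a log2 fold change of -0.36 (SE 0.20; limma, adjusted p = 0.480). The sGC animals of the second batch were at 20 and 34, and within the first batch the log2 fold change was -0.14 (limma, adjusted p = 0.850). The part of the batch in these values was not tested within the second batch, since its Veh libraries were not analysed here. NR1D1 (0.02), PER2 (0.01), PER1 (-0.02), CRY1 (-0.04), CRY2 (-0.05), RORA (-0.05) and NPAS2 (0.09) all had adjusted p-values above 0.5 with limma.

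The difference between generations was then tested directly, as the difference of the sGC effects between 2 tables (limma contrast over all genes present in both). For F1 against F3, CLOCK passed, with a difference of 0.48 (SE 0.13; limma, adjusted p = 0.0342; exact permutation p = 0.00891). It was the only 1 of 10 clock genes to do so, where 3.63% of 11539 genes passed. The contrast took 1 residual variance per gene over both generations, while the within-group SD of CLOCK log2 values was 0.211 in F1 and 0.0646 in F3. Its SE of 0.126 was therefore below that of the F1 effect alone, 0.133. The limma p-value as deposited thus does not carry the full spread of F1. After size factors the CLOCK difference was 0.42 (SE 0.06; limma, adjusted p = 1.59e-04; exact permutation p = 0.00216). On the deposited scale the call was lost in 14 of 22 refits that left out 1 animal (F1 Veh SGM11, SGM15 or SGM19, F1 sGC SGM4, SGM8 or SGM16, or any of 8 F3 animals), with adjusted p-values up to 0.0681, and after size factors it held in all 22. ARNTL differed in the opposite direction, by -0.14 on the deposited scale (SE 0.12; limma, adjusted p = 0.549) and by -0.20 after size factors, where it passed (SE 0.06; limma, adjusted p = 0.0114; exact permutation p = 6.18e-04). With size factors 2 of 10 clock genes thus passed, where 22% of all genes did. PER3 had the largest difference of the 10 as deposited, 0.86 (SE 0.29, limma, adjusted p = 0.0917, exact permutation p = 0.0115). It did not pass there or after size factors (0.79, limma, adjusted p = 0.0627), and passed as deposited in 2 of 22 such refits. RORA was at 0.39 as deposited (SE 0.14, limma, adjusted p = 0.125, exact permutation p = 0.0339).

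For F1 against F2, 0 of 10 clock genes passed on the deposited scale, where 1.37% of 11612 genes did. CLOCK had a difference of 0.44 (SE 0.15; limma, adjusted p = 0.147; exact permutation p = 0.0261), and after size factors 0.31 (SE 0.08; limma, adjusted p = 0.0432; exact permutation p = 0.0460), where 4.44% of genes passed. That call was lost in 16 of 20 refits that left out 1 animal (all but F1 Veh SGM15, F1 sGC SGM12, F1 sGC SGM20 and F2 Veh SGM22), and the difference was between 0.27 and 0.35 over the 20. RORA differed by 0.61 (SE 0.27; limma, adjusted p = 0.262; exact permutation p = 0.0457), a value that includes Veh SGM28 of F2 and was 0.39 without that animal. For F2 against F3, 0 of 10 passed, where 1.52% of 11638 genes did, and ARNTL had the lowest adjusted p (-0.21, SE 0.09; limma, adjusted p = 0.241; exact permutation p = 0.0332). After size factors 0 of 10 passed as well, where 1.73% of genes did.

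The wider clock pathway was described with 30 further genes, listed with earlier results of these data known, of which 27, 26 and 25 were tested in F1, F2 and F3. ARNTL2, CSNK2A1 and FBXL21 were in none of the tables under those symbols, DBP not in that of F3, and HDAC3 in that of F1 alone. In F1, 2 of 27 were higher on the deposited scale and 0 lower, where 0.657% of all genes passed. One was EP300 (p300), a histone acetyltransferase that is recruited by CLOCK and ARNTL as a coactivator. EP300 was at 1119, 1289, 1013, 886 and 879 in Veh and at 1553, 1684, 1625, 1664 and 1376 in sGC, without overlap, a log2 fold change of 0.62 (SE 0.12; limma, adjusted p = 0.0195). The other was RORB, a relative of RORA, which is enriched in the suprachiasmatic nucleus, at 1325 ± 310 in Veh and 2126 ± 459 in sGC (SD, n = 5 each; log2 fold change 0.69, SE 0.16; limma, adjusted p = 0.0432). On the deposited scale the call of EP300 was lost without Veh SGM11, SGM15 or SGM19 (adjusted p up to 0.0735), and that of RORB without these or sGC SGM4 or SGM16 (up to 0.146). With size factors both calls held in all 10 refits.

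After size factors 7 of 27 passed in F1, 6 higher and 1 lower, and 5 of the 7 were among the 9 coregulators. EP300 rose by 0.56, RORB by 0.62 and PPARGC1A (PGC-1 alpha), a coactivator of the ROR receptors, by 0.40 on the log2 scale. CREBBP (CBP), the paralog of EP300, rose by 0.25 and MED1, a subunit of the Mediator complex, by 0.26. GSK3B, a kinase that phosphorylates several clock proteins, rose by 0.11. HDAC3, the histone deacetylase through which NR1D1 represses with NCOR1, fell by 0.29 (limma, adjusted p = 0.00831). NCOR1 itself was at 0.08 (limma, adjusted p = 0.150). The adjusted p-values of the 6 that rose lay between 4.42e-05 and 0.0429, beside 17.3% of all genes called. At an unadjusted p under 0.05 the deposited scale gave 4 of the 9 coregulators, against 13.6% of all genes, and size factors gave 6 of 9, against 32.9%.

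The output genes of the clock did not pass in F1. DBP, a direct E-box target and among the strongest rhythmic transcripts, averaged 1381 ± 182 in the Veh animals against 1526 ± 201 in the sGC animals (SD, n = 5 each), giving a log2 fold change of 0.14 (SE 0.12; limma, adjusted p = 0.685). The E-box targets NR1D2 (0.19), BHLHE40 (0.10) and CIART (0.13) were likewise positive and did not pass (limma, adjusted p from 0.456 to 0.808). BHLHE41, the paralog of BHLHE40, was at 0.28 (limma, adjusted p = 0.366) and at 0.22 after size factors (adjusted p = 0.0507). Of the output factors DBP, TEF, HLF and NFIL3, 2 were positive and 2 negative, with HLF at -0.15 and NFIL3 at -0.06. In F2 0 of 26 pathway genes passed with limma on either scale, and 0 had an unadjusted p under 0.05 on the deposited scale (11.7% of all genes did) and 2 after size factors (12.8% of all genes). In F3 0 of 25 passed with limma on either scale, where 0.0506% of all genes passed as deposited and 0.0421% after size factors, and 3 had an unadjusted p under 0.05 on both (13.1% and 13.2% of all genes did). Those were CSNK1E, a kinase of the PER proteins, at -0.14 (limma, adjusted p = 0.193), NR1D2, the paralog of NR1D1, at -0.13 (adjusted p = 0.278), and PPARGC1A at -0.17 (adjusted p = 0.298). The EP300 effect differed between F1 and F2 (0.70, SE 0.14; limma, adjusted p = 0.0237) and between F1 and F3 (0.69, SE 0.12; adjusted p = 0.00195), and that of RORB between F1 and F3 (0.82, SE 0.20; adjusted p = 0.0246) but did not pass between F1 and F2 (0.60, SE 0.22; adjusted p = 0.169). These contrasts also took 1 residual variance per gene over both generations. The differences of CREBBP (0.34) and MED1 (0.35) between F1 and F3 did not pass on the deposited scale (limma, adjusted p = 0.0951 and 0.0671). They passed after size factors (0.28 for both, limma, adjusted p = 0.00298 and 2.68e-04). Between F1 and F2 they did not pass on the deposited scale (0.35 and 0.25, limma, adjusted p = 0.197 and 0.356). Nor did they pass after size factors (0.21 and 0.12, limma, adjusted p = 0.0648 and 0.212).

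**Figure D4:**
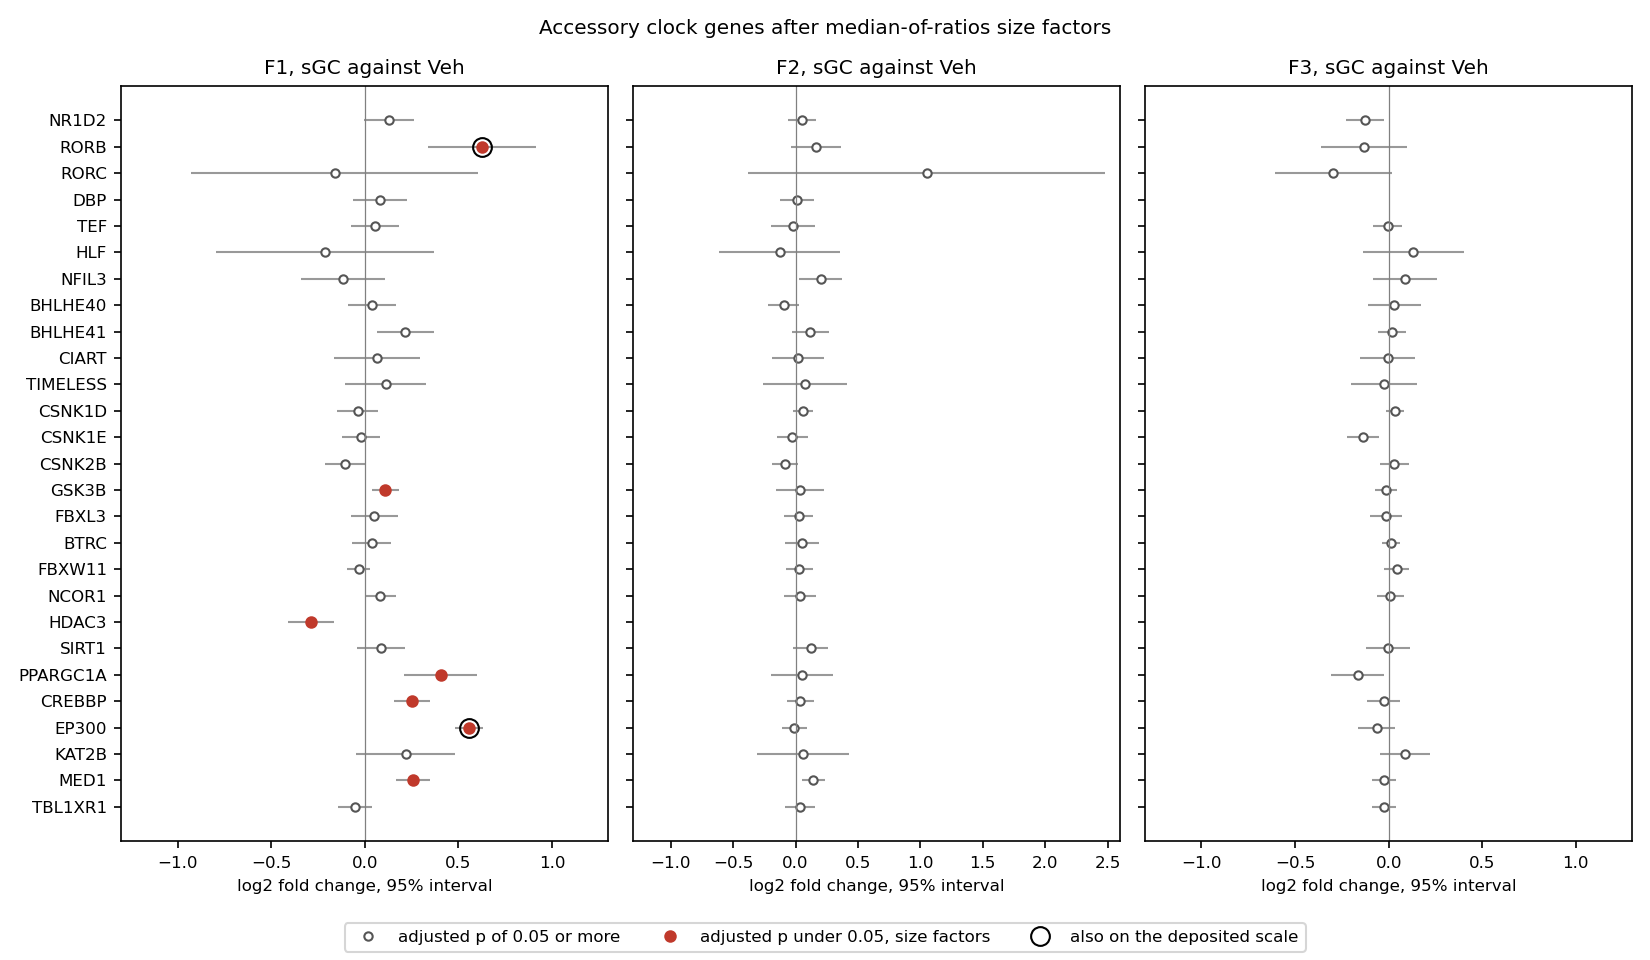
Log2 fold change of sGC against Veh after size factors (x axis; points estimates, whiskers 95% limma intervals; the F2 axis is longer) for each further pathway gene (y axis) in F1, F2 and F3, with red points for an adjusted p under 0.05 and black rings for genes that also passed on the deposited scale. The called genes are in F1, led by RORB (0.62) and EP300 (0.56).

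Markers of the PVN and of other cell types are given beside these results. The defining PVN peptides AVP and OXT were present in every library of the 3 generations, with AVP between 6289 and 110112. In F1 all 8 of 8 PVN markers were lower in sGC, with a median log2 fold change of -0.82, 6 with an unadjusted limma p under 0.05 (13.6% of all genes) and 0 past the threshold. After size factors 7 of 8 had an unadjusted p under 0.05 (32.9% of all genes) and 1 passed, where 17.3% of all genes did, namely TRH (limma, adjusted p = 0.0398, against 0.0802 with a log2 fold change of -0.94 as deposited). Their summed level ran from 99211 to 223795 in Veh and from 27804 to 194532 in sGC. Of 7 suprachiasmatic markers in the table, 6 were higher in F1 sGC and 1 passed, where 0.657% of all genes did. At an unadjusted p under 0.05 the deposited scale gave 3 of these 7 and size factors gave 2, against 13.6% and 32.9% of all genes. The marker that passed was LHX1 (1.04; limma, adjusted p = 0.0248), at 135 to 422 in Veh and 458 to 727 in sGC. VIP, a defining peptide of that nucleus, was at 37 to 127 in Veh and 30 to 59 in sGC. The summed level of these markers ran from 1674 to 3612 in Veh and from 2910 to 4191 in sGC, none was at 0 throughout a group, and NMS and PROK2 were in none of the tables. In F3, 4 of 7 suprachiasmatic and 1 of 8 PVN markers had an unadjusted p under 0.05 on both scales. The share of all genes was 13.1% and 13.2%, and 0 of these markers passed. Those suprachiasmatic log2 fold changes lay on both sides of 0, with a range over the list from -0.98 to 0.57 as deposited.

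Of the 3 ependymal and choroid plexus markers, TTR was at 0 to 21 in F1 Veh and 0 to 492 in F1 sGC. Its log2 fold change was 3.5 (SE 1.07, limma, adjusted p = 0.1275). FOXJ1 had a log2 fold change of 0.15 and CCDC153 of -0.30, and 0 of 3 passed. On both scales 1 of 3, TTR, had an unadjusted p under 0.05, against 13.6% and 32.9% of all genes. The 4 microglial markers were all positive in F1 on the deposited scale (median 0.35). The 4 oligodendrocyte markers (median 0.34), the 3 endothelial markers (median 0.33) and the 3 neuronal markers (median 0.20) were too, and 4 of 5 astrocyte markers were (median 0.10), with GFAP at -0.17. None of these 19 passed on that scale, and 2 microglial, 1 oligodendrocyte, 2 endothelial, 1 neuronal and 0 astrocyte markers had an unadjusted p under 0.05, against 13.6% of all genes. After size factors these counts were 2, 0, 1, 0 and 0, against 32.9% of all genes. On that scale 3 of 4 microglial and 2 of 3 neuronal markers were positive, and 1 of the microglial markers passed, CX3CR1 (0.25; limma, adjusted p = 0.0496), where 17.3% of all genes did. In F2 all 5 oligodendrocyte markers had negative log2 fold changes (median -0.88) and all 3 endothelial markers did (median -0.34), whereas 7 of 8 PVN markers had positive ones (median 0.26). Of these, 5, 2 and 4 had an unadjusted limma p under 0.05, against 11.7% of all genes, and 0 passed the threshold. All 3 neuronal and all 3 microglial markers in the F2 table were negative as well, with 0 at an unadjusted p under 0.05. The part of tissue content in the F1 clock differences was not tested.

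The spread of the clock genes between animals of a group was unequal. After size factors the within-group SD of log2 values in F1 was 0.05 for ARNTL and 0.06 for NR1D1, lower than in all but 4.99% and 8.74% of genes, and 0.34 for PER3, higher than in 87.2%. PER3, whose counts are the lowest of the 10, was also widely spread in F2 (0.37, higher than in 90.6%), where RORA was wider (0.48), and in F3 (0.39, higher than in 97.2%). CLOCK had 0.08, 0.10 and 0.07 in F1, F2 and F3, each below the median gene (0.12, 0.13 and 0.08). CLOCK, ARNTL and NR1D1 were below the median gene in all 3 generations, NPAS2, RORA, PER2 and PER3 were above it in all 3, and PER1, CRY1 and CRY2 were on both sides.

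The relation of clock genes to each other across animals was computed on values centred within groups, for 10 pairs in 3 generations (30 relations, 10 animals in F1 and F2 and 12 in F3). On the deposited scale 6 of 30 passed by Pearson's r after Benjamini-Hochberg adjustment (permutation tests, two-sided), 28 were positive, and 5 of the 6 were in F1. By Spearman's rho only ARNTL with CRY1, CRY2 and CLOCK in F1 and ARNTL with CRY1 in F3 passed on that scale. ARNTL with CLOCK in F1 had r = 0.94 and rho = 0.91 (permutation p = 6.50e-04 and 5.90e-04, adjusted 0.0152 and 0.0126), and r = 0.88 without the 2 animals farthest from the median of ARNTL. ARNTL with NR1D1 in F1 had r = 0.95 and rho = 0.75 (permutation p = 0.00177 and 0.0181, adjusted 0.0177 and 0.0679), and r = 0.91 without those 2 animals. The totals of F1 animals differed, which moves all genes of an animal together, and after size factors 0 of 30 passed by Pearson's r, with ARNTL and CLOCK in F1 at r = 0.42 (rho 0.48, permutation p = 0.279 and 0.183, adjusted 0.518 and 0.536).

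ARNTL with CRY1 in F3, where totals were nearly equal, moved little with scaling. It had r = 0.74 and rho = 0.88 on the deposited scale (permutation p = 0.00944 and 8.40e-04, adjusted 0.0472 and 0.0126). After size factors it had r = 0.72 and rho = 0.86 (permutation p = 0.0123 and 0.00139, adjusted 0.369 and 0.0417), and r = 0.67 without the 2 animals farthest from the median. The sign was positive, so that animals with more ARNTL, an activator of the loop, also had more CRY1, an inhibitor. PER1 with PER2 had r of 0.62, 0.67 and 0.54 after size factors in F1, F2 and F3 (permutation p = 0.161, 0.0543 and 0.0988, adjusted 0.518, 0.420 and 0.420; rho 0.55, 0.55 and 0.66, permutation p = 0.175, 0.135 and 0.0318, adjusted 0.536, 0.507 and 0.318), and without the 2 animals farthest from the median r was 0.52, 0.31 and 0.25.

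Among 10533 other genes, those whose values across animals were most like a clock gene were named by the mean over the 3 generations of Pearson's r of centred values, as a description. After size factors they were SCYL2 (0.81), PLPPR4 (0.81) and FAM171B (0.80) for ARNTL, SYNE1 (0.79), CCDC13 (0.75) and IQCE (0.75) for PER2, PSMD3 (0.74), XYLT2 (0.70) and MAN1B1 (0.68) for NR1D1, and ASAP2 (0.78), LRFN2 (0.76) and SLC4A1AP (0.75) for CLOCK. On the deposited scale SCYL2 (0.92), SYNE1 (0.84) and ASAP2 (0.92) also led for ARNTL, PER2 and CLOCK, whereas MUM1 (0.90) led for NR1D1. The 99th percentile of the mean r over all genes was 0.52 to 0.61 after size factors.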

How the data were processed

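PVN micropunches of 32 animals were sequenced. Per the methods, the authors aligned reads with Tuxedo tools to the cavPor3 assembly, counted reads per gene and removed outliers. They joined 2 sequencing batches of F3 with ComBat, and removed unwanted variation with RUVSeq. The deposited values are therefore a score, normalized counts rounded to whole numbers, with a separate table for each generation, and a count model was not used. The deposited tables also hold the authors' edgeR results (fold changes, p-values), which were not used. The 2 re-sequenced F3 Veh libraries were not analysed here. Each table was fitted on log2(value + 1) with limma 3.58.1 in R 4.3.3 (eBayes with trend, sGC against Veh), keeping genes whose mean was 10 or more, and p-values were adjusted by Benjamini-Hochberg over all of these, with a threshold of 0.05. Differences between generations were contrasts of 2 joined tables, with 1 residual variance per gene over both, although the spread differed between generations. Fold changes are on the log2(value + 1) scale. Exact permutation tests enumerated all splits of the animals. Correlations were tested with 100000 permutations within groups (numpy 2.4.6). Alternatives were other pseudocounts, filters and scalings, the directions of variation missing from the deposited values or the batch as covariates, the animal's number in the column names as a replicate block, and leaving out each animal. Fits were tested on simulated data. Each animal is 1 sample of its group. The methods give group sizes as numbers of separate litters, and the labels name no litter. The p-values measure the spread between these animals that was left after the authors' normalization. The deposited values lacked 1, 1 and 2 directions of variation in F1, F2 and F3. The main fits do not count these, so that their p-values can be too small. With them as covariates the adjusted p of CLOCK in F1 after size factors was 0.00621 (limma). The members, the further pathway genes and the marker lists were chosen with earlier results of these data known. Named genes were all members, DBP, NR1D2, BHLHE40 and CIART, pathway genes past the threshold in any generation, and for likeness the 3 genes with the highest mean r among those with a mean of at least 50 in all tables. TEF, HLF, NFIL3, BHLHE41 and NCOR1 in F1, CSNK1E and PPARGC1A in F3, the differences of CREBBP and MED1, single marker genes and the ratios between members were chosen after their values were seen. Genes were matched by symbol, and how reads shared by paralogs or overlapping genes were split is not given in the sources used here. The methods give sequencing depth per sample only as an approximate or minimum number of reads. For single libraries the values used here show it only through their totals, so that no counting interval was computed.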

Additional observations from a re-analysis of the deposited data

Results flagged for a closer look

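In 60 groups of values (10 genes in 6 groups), 4 held 1 animal far from the others on the log2 scale, where chance flags about 1 in 20. NR1D1 of F1 sGC SGM20 was at 11.52 against 11.84 to 11.91 in the others. This animal also had the smallest total of its group. PER1 of F2 Veh SGM28 was at 10.14 against 10.06 to 10.08, and PER3 of the same animal was at 8.21 against 7.61 to 7.77. CRY1 of F2 sGC SGM24 was at 9.23 against 9.56 to 9.66, in the animal with the smallest total of F2.

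The sGC effect on CLOCK differed between F1 and F3 by 0.48 on the log2 scale (limma with 1 variance per gene over both generations, adjusted p = 0.0342). For RORA every F1 sGC animal lay above the F1 Veh mean and every F2 sGC animal below the F2 Veh mean, a difference of 0.61 that did not pass when tested (limma, adjusted p = 0.262). The F2 Veh mean is raised by SGM28, and without that animal the difference was 0.39 (adjusted p = 0.350). After size factors 1 F2 sGC animal lay above the F2 Veh mean of the log2 values, the mean used here.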

How the results depend on the processing

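The clock gene calls depended on scaling in F1, where totals differed most. The settings that kept all animals or 1 batch gave 379 log2 fold changes of the clock genes. Of these, 332 kept their direction and their side of the threshold, 38 changed sign and 9 came to pass. Of those 9, 5 were CLOCK in F1 under other scalings and 4 were unadjusted exact p-values (CLOCK, RORA and PER3 in F1 and ARNTL in F3). None could cease to pass, since 0 clock genes passed in the main fit of any generation. In F1, 1 clock gene passed after size factors, scaling to the total, quantile normalization, or size factors with the removed directions as covariates, and 3 had an exact permutation p under 0.05 before adjustment. Leaving out each animal gave 0 to 1 as deposited and 1 to 2 with size factors, refits that were chosen after seeing the data, as were all alternatives for the pathway genes. Of the pathway genes in F1, 7, 8, 7 and 6 passed under those 4 scalings against 2 as deposited, and 0 to 4 when each animal was left out. The exact permutation test gave 1 clock gene in F3. Differences between F1 and F2 passed for 1 clock gene with size factors, 2 by the exact test and 0 to 1 over left-out animals, and those between F1 and F3 for 2, 3 and 0 to 2. Between F2 and F3 the exact test gave 1. Of the correlations, 0 passed by Pearson's r with size factors, against 6 as deposited. With size factors 1 passed by Spearman's rho, ARNTL with CRY1 in F3. Of all genes, 10.8% in F1, 10.4% in F2 and 12.5% in F3 had an unadjusted exact p under 0.05, and 14.7%, 15% and 13% for the differences between F1 and F2, F1 and F3, and F2 and F3.

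The column names number the animals within each group, and nothing says that a number is shared by related animals. Deviations of same-numbered animals had r from -0.24 to 0.31 in F1, -0.41 to 0.22 in F2 and -0.54 to 0.19 in F3, so the numbers were not taken as pairs. With that number as a replicate block, a fit added after seeing the data, 0 clock genes passed in F1, F2 and F3 on the deposited scale, and with size factors 1 in F1, CLOCK, and 0 in F2 and F3. Over all genes the block gave 146, 6 and 0 calls as deposited and 771, 0 and 0 with size factors. Signs turned with the block and size factors as with size factors alone: NPAS2 (-0.042) and CRY2 (-0.032) in F1, and PER1 (0.026), PER2 (0.044), PER3 (0.047), CRY1 (0.0084) and CRY2 (0.0062) in F2.

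Signs that turned were of effects near 0. Under size factors, total scaling, quantile normalization and size factors with removed directions, NPAS2 in F1 was at -0.042, -0.037, -0.070 and -0.042 and CRY2 in F1 at -0.032, -0.026, -0.035 and -0.032. In F2 the same settings gave PER1 0.026, 0.036, 0.025 and 0.026, PER2 0.044, 0.054, 0.017 and 0.044, PER3 0.047, 0.057, 0.033 and 0.047, and CRY2 0.0062, 0.016, 0.0081 and 0.0062. CRY1 in F2 turned under all of these but quantile normalization, at 0.0084, 0.018 and 0.0084. In F3, RORA was at 0.0052 and PER1 at 0.067 within the first batch and with batch as a covariate. With size factors the differences of effects turned for ARNTL (-0.068) and CRY2 (-0.038) between F1 and F2, and for PER1 (0.045), PER2 (0.036), CRY1 (0.047) and CRY2 (0.058) between F2 and F3.

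Leaving out each animal in turn, F1 effects ranged from -0.053 to 0.14 for NPAS2, -0.093 to 0.047 for ARNTL and -0.033 to 0.078 for CRY2, and with size factors from -0.081 to 0.0046 for NPAS2 and -0.0074 to 0.075 for CRY1. F2 effects ranged from -0.017 to 0.060 for CLOCK, -0.082 to 0.026 for PER2, -0.15 to 0.10 for PER3 and -0.14 to 0.010 for CRY1. F3 effects ranged from -0.069 to 0.016 for PER1, -0.036 to 0.078 for PER2, -0.085 to 0.0061 for CRY1 and -0.0016 to 0.033 for NR1D1. Differences ranged from -0.14 to 0.049 for NPAS2 between F1 and F3. Between F2 and F3 they ranged from -0.38 to 0.0037 for RORA, -0.064 to 0.020 for PER1, -0.11 to 0.019 for PER2, -0.10 to 0.050 for CRY1 and -0.056 to 0.021 for CRY2.

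Over all genes, F1 had 78 calls as deposited (72 higher, 6 lower) and 2058 with size factors (1006 higher, 1052 lower), 1943 with total scaling, 2083 with quantile normalization and 1345 with size factors and removed directions. F2 had 0, with 17 at a mean of at least 50 and 42 with quantile normalization. F3 had 6, with 1 under either setting with removed directions, 2 in the first batch and 3 with batch as a covariate. Left-out animals gave 15 to 474 in F1 (904 to 2021 with size factors), 0 to 114 in F2 and 1 to 15 in F3. The cause was not tested.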
